A study of Mus musculus with 10 samples.

Results

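Complement is a cascade of plasma proteases and pore-forming proteins, most of which the liver supplies. C1q, a recognition protein built from the products of C1qa, C1qb and C1qc, starts the classical pathway and is made mainly by macrophages, while hepatocytes secrete the proteases, C3, C4 and the pore components of the later steps. Here 35 complement genes, chosen by name as components, regulators, lectins and receptors, were followed in mouse liver, and all 35 were found as 1 row each among the 56748 genes of the count table. They were set in order by role and by usual source from textbook knowledge, 9 as macrophage-made, 23 as hepatocyte-made and 3 as other, since no cell type was sorted here.

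The study asked what Acss2, which makes acetyl-CoA from acetate, does in fatty liver disease with inflammation. The samples were 10 whole-liver RNA-seq libraries, 5 with floxed Acss2 (genotype ACSS2-flox, here flox) and 5 labelled as its knockout in liver cells (ACSS2-HKO, here HKO). Both groups had been on the same high-fat, high-fructose feeding over 4 months, so no library shows liver on ordinary chow. The labels name no Cre driver, strain, age or sex and do not say that each library is a separate mouse. The p-values therefore measure the spread between these libraries. Values are CPM, counts scaled to library size with TMM factors, replicates are listed in the order 1 to 5, and a fold change is HKO over flox from edgeR's quasi-likelihood test, with its standard error (SE). A gene is said to rise or fall where the Benjamini-Hochberg adjusted p over all 14068 tested genes was under 0.05.

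Library totals ran from 15413648 to 19275358 counts, and the complement genes took 1.53% to 2.29% of them. Acss2 itself was at 73.1, 86.8, 56.4, 128.6 and 58.5 CPM in flox and at 52.7, 58.9, 43.7, 40.2 and 51.3 CPM in HKO, with overlapping groups and an edgeR adjusted p of 0.0858. Hepatocyte markers summed to 110076 to 164382 CPM in flox and to 135339 to 176840 CPM in HKO. The largest part was Alb, at 53079 to 98347 CPM in flox and 73735 to 103465 CPM in HKO. Of the 20 markers 1 rose (Rbp4, log2 fold change 0.63 ± 0.16, edgeR adjusted p = 0.0383), or 0 of 20 without flox replicates 4 and 5. Among all tested genes 0.917% rose, or 93 of 14464 without those replicates. Transcripts of the Y chromosome genes Ddx3y, Kdm5d, Uty and Eif2s3y were read in all 10 libraries, summing with Xist to 159 to 240.1 CPM in flox and 186 to 239 CPM in HKO, and 0 of the 4 passed. Xist alone did not exceed 0.600 CPM in any library. Flox replicates 4 and 5 stood apart from the other controls in macrophage transcripts, and flox replicate 4 also in transcripts with a sex bias in liver.

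The promoters of 6 genes are shown first, chosen after their values were seen. C1qb, C1qc, Cfp and C8b passed the test, while C6 and C8a did not (edgeR adjusted p = 0.0522 and 0.0532). C1qb, C1qc and Cfp are macrophage-made, and C6, C8a and C8b are hepatocyte-made. Each window holds 250 bases before and 50 after the RefSeq start on GRCm38.p6, 5′ to 3′ on the gene's strand. Capitals mark GAGGAA (the core bound by the myeloid factor PU.1), GTTAAT (a half-site of the hepatocyte factor HNF1), TTGNNCAA (a C/EBP palindrome) and TTCNNNGAA (a STAT palindrome), all searched on both strands, so that a match on the other strand reads as the reverse complement of these letters. No capitals of different motifs overlap in the windows printed. Windows were matched by symbol for 25 of the 35 genes. None was found for C1qa, C4a, C4b and Itgb2, which also passed the test.
C1qb (chr4:136886151-136886450, minus strand): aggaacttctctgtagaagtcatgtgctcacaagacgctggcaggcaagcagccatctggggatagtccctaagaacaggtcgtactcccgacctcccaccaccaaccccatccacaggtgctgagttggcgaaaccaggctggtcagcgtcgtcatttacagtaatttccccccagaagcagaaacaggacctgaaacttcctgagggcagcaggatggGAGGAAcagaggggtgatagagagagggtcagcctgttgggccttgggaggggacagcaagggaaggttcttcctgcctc
C1qc (chr4:136892865-136893164, minus strand): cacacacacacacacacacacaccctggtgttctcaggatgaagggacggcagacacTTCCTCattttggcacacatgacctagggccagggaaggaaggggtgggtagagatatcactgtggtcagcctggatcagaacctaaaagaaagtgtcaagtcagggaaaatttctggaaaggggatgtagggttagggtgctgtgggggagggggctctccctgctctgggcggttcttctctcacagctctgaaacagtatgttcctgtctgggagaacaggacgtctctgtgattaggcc
Cfp (chrX:20931506-20931805, minus strand): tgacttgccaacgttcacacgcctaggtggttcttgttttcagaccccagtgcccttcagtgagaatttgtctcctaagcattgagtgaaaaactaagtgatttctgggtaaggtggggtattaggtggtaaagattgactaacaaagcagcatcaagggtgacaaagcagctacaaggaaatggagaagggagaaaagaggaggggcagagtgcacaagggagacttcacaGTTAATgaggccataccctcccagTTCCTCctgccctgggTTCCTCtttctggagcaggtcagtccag
C6 (chr15:4726960-4727259, plus strand): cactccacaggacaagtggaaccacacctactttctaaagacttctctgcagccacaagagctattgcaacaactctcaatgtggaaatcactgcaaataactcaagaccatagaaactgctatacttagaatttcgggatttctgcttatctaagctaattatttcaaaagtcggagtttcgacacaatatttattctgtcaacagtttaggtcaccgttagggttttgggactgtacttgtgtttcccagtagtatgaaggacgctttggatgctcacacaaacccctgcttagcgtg
C8a (chr4:104876349-104876648, minus strand): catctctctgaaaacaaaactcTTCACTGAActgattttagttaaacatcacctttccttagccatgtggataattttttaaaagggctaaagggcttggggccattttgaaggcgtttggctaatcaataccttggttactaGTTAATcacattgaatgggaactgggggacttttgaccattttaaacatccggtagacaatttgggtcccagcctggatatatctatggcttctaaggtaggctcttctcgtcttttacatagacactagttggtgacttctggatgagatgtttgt
C8b (chr4:104766067-104766366, plus strand): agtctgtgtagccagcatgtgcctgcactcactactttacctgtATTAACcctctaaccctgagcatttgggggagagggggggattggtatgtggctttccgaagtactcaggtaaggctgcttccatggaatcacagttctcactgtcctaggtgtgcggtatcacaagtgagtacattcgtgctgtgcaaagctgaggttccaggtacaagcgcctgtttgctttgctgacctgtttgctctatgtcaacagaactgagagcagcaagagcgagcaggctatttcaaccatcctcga

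The GAGGAA core began at position -30 in C1qb and at -193 in C1qc, counted back from the start site, and at 7 and 23 past the start in Cfp, whose window also held the HNF1 half-site at -18. It was present in 5 of the 7 macrophage-made genes with a window and in 1 of 15 hepatocyte-made genes, against 28.3% of all 32851 RefSeq windows of this length. The HNF1 half-site began at -107 in C8a and at -206 in C8b, and was present in 6 of the 15 hepatocyte-made genes and 1 of the 7 macrophage-made genes, against 7.10% of all windows. The STAT palindrome began at -228 in C8a and was present in 5 of the 15 hepatocyte-made and 0 of the 7 macrophage-made genes, against 8.30% of all windows. The C/EBP palindrome was present in 1 of 15 and 0 of 7, against 6.40%. These matches describe the letters of the windows and say nothing of which factor bound there. The C6 window held none of the 4 motifs.

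Across the 35 genes, 5 of the 9 genes listed as macrophage-made fell in HKO livers. The bulk of the genes listed as hepatocyte-made did not pass the test, and a few of them moved in opposite directions. Of the 33 genes that passed the filter on low counts, 6 fell (C1qa, C1qb, C1qc, Cfp, Itgb2 and C4b) and 2 rose (C4a and C8b). Among all tested genes 3.99% changed, 3.07% falling and 0.917% rising. Among the 9 macrophage-made genes 5 fell, 2 did not pass and 2 (C5ar1 and Itgam) were under the filter. Among the 23 hepatocyte-made genes 1 fell, 2 rose and 20 did not pass. The median log2 fold change was -1.51 over the 7 tested macrophage-made genes and 0.03 over the 23 hepatocyte-made genes, beside 0.01 over all tested genes. Without flox replicates 4 and 5 the macrophage-made median was -0.91 and the hepatocyte-made median 0.08. The count of fallen genes was 3 without HKO replicates 1, 2, 4 or 5 in turn, 4 without flox replicates 4 or 5, and 3 without both of those. Over all tested genes 432 fell in the main fit, and 242, 299, 220 and 256 without HKO replicates 1, 2, 4 and 5. Without flox replicate 4, without 5 and without both, 386, 259 and 176 fell. The count of risen genes was 4 without flox replicate 4, since C6 and C8a then passed. Over all tested genes 129 rose in the main fit and 160 without flox replicate 4.

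**Figure D1:**
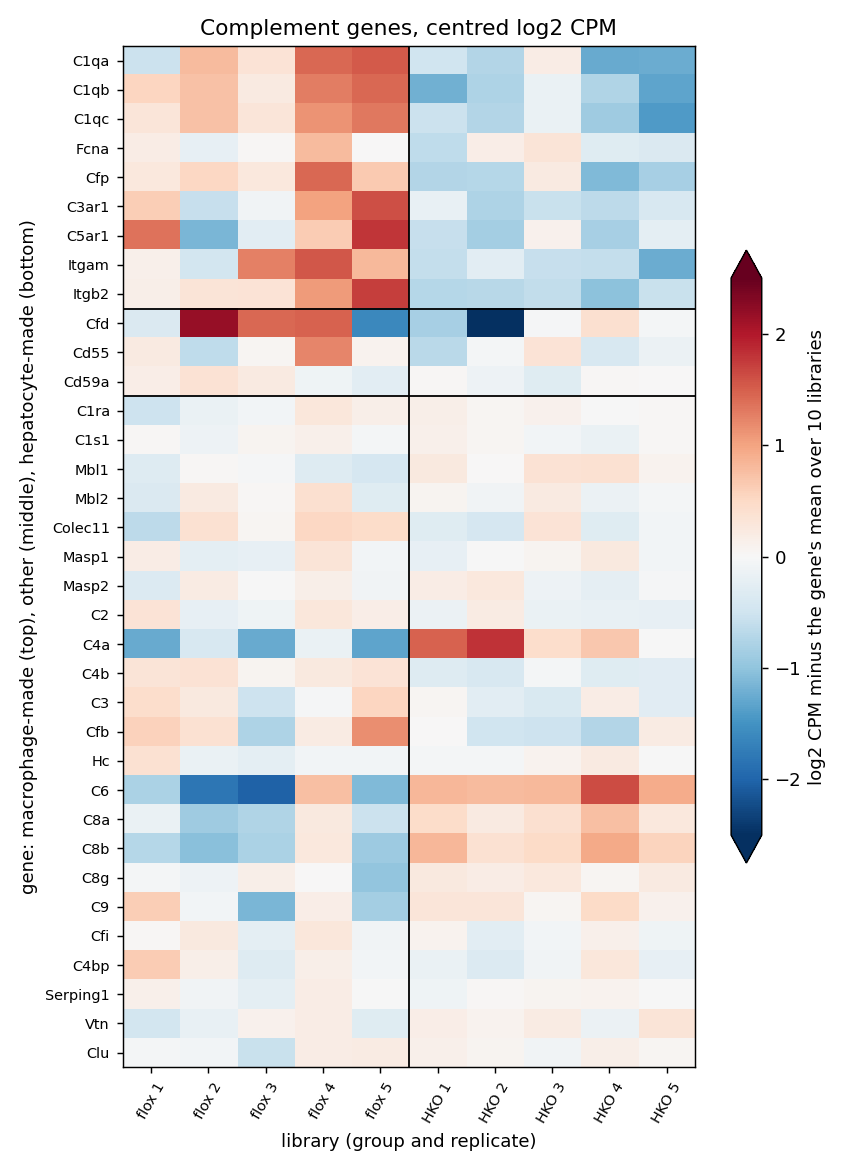
Each row is a complement gene and each column a library, coloured by log2 CPM minus the gene's mean over the 10 libraries, with macrophage-made genes at the top, others in the middle and hepatocyte-made genes at the bottom. The C1q rows are darkest red in flox replicates 4 and 5 and the C6 and C8b rows are red in all 5 HKO libraries and in flox replicate 4.

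**Figure D2:**
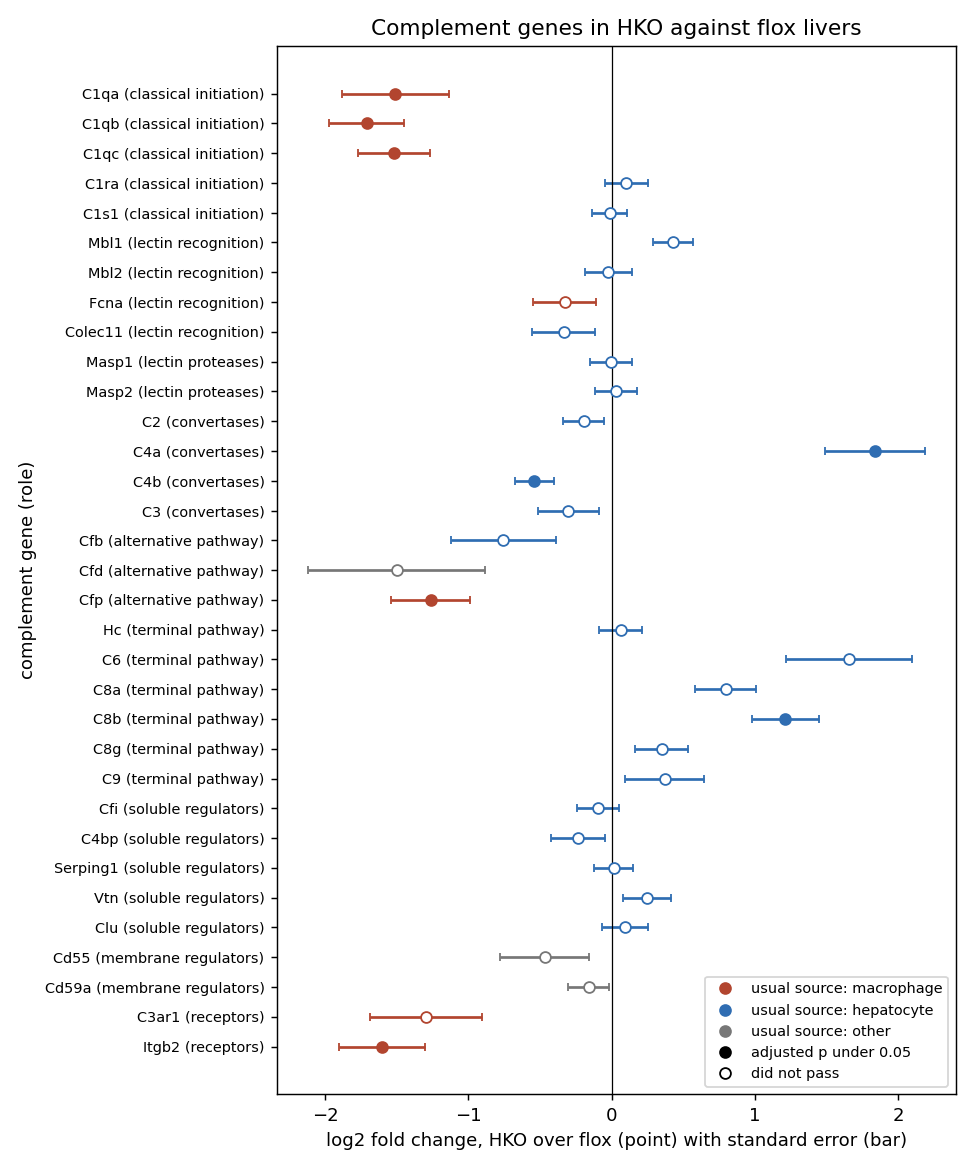
Points are log2 fold changes of the 33 tested genes, HKO over flox, bars are standard errors, and filled points passed at an adjusted p under 0.05. The 7 macrophage-made genes all lie left of 0, from -1.71 for C1qb to -0.33 for Fcna, while the hepatocyte-made genes run from -0.76 for Cfb to 1.84 for C4a.

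The C1q chains start the classical pathway, and all 3 fell. C1qb (ENSMUSG00000036905, chromosome 4, 136607440 to 136613498, minus strand) was at 29.1, 33.1, 23.4, 48.8 and 54.1 CPM in flox and at 8.61, 11.6, 17.7, 11.9 and 7.92 CPM in HKO. Every HKO library lay below every flox library, and the highest levels were in flox replicates 4 and 5. The fall was 3.27-fold (log2 fold change -1.71 ± 0.26, edgeR adjusted p = 0.00602), and the exact two-sided permutation p was 0.00794, as small as 5 against 5 libraries can reach.

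C1qc was at 25.9, 34.8, 25.8, 46.2 and 52.4 CPM in flox and at 14.4, 12.6, 18.6, 11.3 and 7.76 CPM in HKO, again without overlap. It fell 2.87-fold (log2 fold change -1.52 ± 0.25, edgeR adjusted p = 0.00753). C1qa was at 13.01, 32.8, 24.0, 51.7 and 55.6 CPM in flox and at 13.4, 11.5, 21.6, 7.83 and 8.03 CPM in HKO. Flox replicate 1 sat among the HKO libraries in C1qa alone of the 3 chains. C1qa fell 2.85-fold (log2 fold change -1.51 ± 0.37, edgeR adjusted p = 0.0355), a call that did not survive leaving out any 1 of flox 2, 4 and 5 and HKO 1, 2, 4 and 5 (edgeR adjusted p between 0.0633 and 0.0993). The calls of C1qb and C1qc held under all 16 alternatives. Without both flox replicates 4 and 5 the log2 fold changes were -0.90 for C1qa (edgeR adjusted p = 0.268), -1.30 for C1qb and -1.15 for C1qc.

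The 3 chains assemble in equal numbers in the C1q protein, and their genes lie side by side on chromosome 4 in the order C1qb, C1qc and C1qa within 18.7 kb. Per kilobase of listed gene length, flox means were 34.1 CPM for C1qa, 34.7 for C1qb and 19.2 for C1qc, and HKO means were 12.0, 10.6 and 6.70. C1qa made up 23.7% of the sum of the 3 per-length levels in flox replicate 1, 39.4% to 41.9% in the other flox libraries and 31.0% to 45.6% in HKO. The share of C1qc was 20.2% to 25.4% in flox and 20.6% to 26.4% in HKO, so the relation between the chains overlapped between the groups.

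Macrophage markers moved in the same direction as C1q. Of 20 markers that are not among the C1q genes, 17 fell, 0 rose and 3 did not pass (Cx3cr1, Folr2 and Mertk), with a median log2 fold change of -1.75. Among all tested genes 3.07% fell. The markers were chosen with earlier results of these data known, so their count is not an independent test. Without flox replicates 4 and 5, 8 of the 20 fell and the median was -1.19. The markers summed to 345 to 886 CPM in flox and 145 to 272 CPM in HKO, and no marker was at 0 in a group. Mpeg1, which encodes a pore-forming protein of phagocytes, had a log2 fold change of -1.67 ± 0.23 and Csf1r, the receptor of the macrophage growth factor, of -1.76 ± 0.28. Set against the mean log2 CPM of these markers in the same library, C1qb stood 1.15 to 1.45 higher in flox and 1.14 to 1.43 higher in HKO, on the log2 scale, with overlapping groups. In whole liver, fewer macrophages and less RNA per macrophage cannot be told apart.

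**Figure D3:**
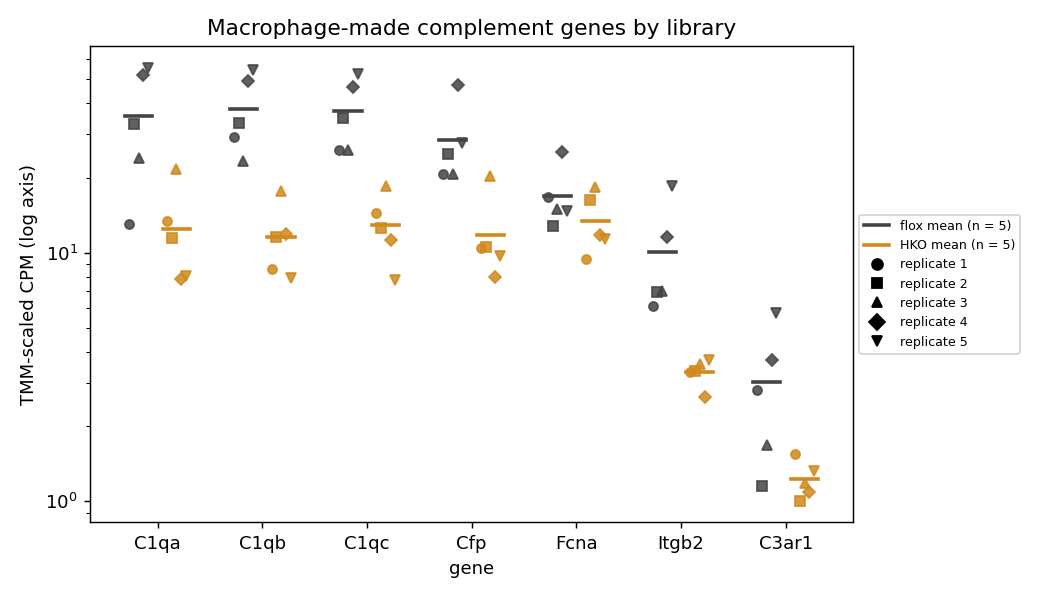
Each symbol is the CPM of 1 library on a log axis, grey for flox and orange for HKO, its shape gives the replicate number and the lines are group means (n = 5 each). C1qb, C1qc, Cfp and Itgb2 show no overlap between the groups, while Fcna overlaps with means of 16.9 and 13.5 CPM.

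C1r and C1s, the proteases that C1q carries, are made by hepatocytes, and neither passed the test. C1ra was at 128, 164, 175, 222 and 202 CPM in flox and at 202, 189, 197, 181 and 187 CPM in HKO (log2 fold change 0.10 ± 0.15, edgeR adjusted p = 0.797). C1s1 was at 399 ± 26.0 CPM in flox and 395 ± 29.4 CPM in HKO (mean ± SD, n = 5 each; log2 fold change -0.01 ± 0.12). The groups overlapped in both genes. C1ra and C1s1 have near-identical copies, C1rb and C1s2, which had 0.186% and 0.00596% as many counts.

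The lectin pathway starts from sugar-binding proteins that resemble C1q, and none of its 6 genes passed. Mbl1, which encodes a mannose-binding lectin, was at 141, 178, 172, 140.0 and 130.03 CPM in flox and at 207, 176, 224, 228 and 186 CPM in HKO. Only HKO replicate 2 overlapped the flox range, by falling just under flox replicate 2. The log2 fold change was 0.43 ± 0.14 with an edgeR adjusted p of 0.113, and DESeq2 gave an adjusted p of 0.0392. Mbl2, the other mannose-binding lectin, was at 285 ± 65.9 CPM in flox and 281 ± 30.0 CPM in HKO. Colec11, a collectin, was at 17.6 ± 4.99 and 13.9 ± 3.22 CPM (log2 fold change -0.34 ± 0.22).

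Fcna, which encodes the ficolin A of Kupffer cells and other macrophages, did not pass the test. Its level was 16.7, 12.8, 14.9, 25.3 and 14.8 CPM in flox and 9.45, 16.4, 18.4, 11.8 and 11.3 CPM in HKO, with wide overlap. The log2 fold change was -0.33 ± 0.22 (edgeR adjusted p = 0.497). Relative to the mean log2 CPM of the 20 macrophage markers, Fcna lay between -0.71 and 0.80 in flox and between 1.25 and 1.82 in HKO, so all 5 HKO libraries lay above all 5 flox libraries on that scale. The markers themselves fell, with a median log2 fold change of -1.75, so a gene with an unchanged level also stands higher in HKO on that scale. The difference describes these libraries and was not tested.

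The proteases of the lectin pathway had close means in the groups. Masp1, the first protease of the pathway, averaged 129 CPM in each group (log2 fold change -0.01 ± 0.15), and Masp2, which cleaves C4 and C2, went from 144 ± 20.7 to 147 ± 21.0 CPM (0.03 ± 0.15). Both genes share their position with another gene. Masp1 overlaps the opposite-strand gene Rtp4, with 19.6% as many counts, and Masp2 overlaps Tardbp, likewise opposite, with 89.1% as many. Whether counting used strand is not stated in the labels.

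C4 is cleaved to help form the C3 convertase, and mice carry 2 copies, C4b and C4a, the latter known as sex-limited protein from its dependence on male hormones. The copies moved in opposite directions. C4a (ENSMUSG00000015451, chromosome 17, 35028069 to 35042440, minus strand, listed as a lncRNA) was at 13.7, 24.7, 13.7, 29.1 and 12.97 CPM in flox and at 91.7, 115, 44.7, 52.1 and 32.6 CPM in HKO. The lowest HKO library, replicate 5, was still above the highest flox library, replicate 4. C4a rose 3.57-fold (log2 fold change 1.84 ± 0.35, edgeR adjusted p = 0.0128, exact permutation p = 0.00794).

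C4b (ENSMUSG00000073418, chromosome 17, 34947354 to 34962856, minus strand) was at 1666, 1727, 1405, 1590.5 and 1706 CPM in flox and at 1064, 1015, 1299.5, 1091 and 1097 CPM in HKO. All HKO libraries lay below all flox libraries, and HKO replicate 3 was the closest to them. C4b fell 1.45-fold (log2 fold change -0.54 ± 0.14, edgeR adjusted p = 0.0426). Leaving out any 1 library other than flox 3 and HKO 3 ended the call (edgeR adjusted p between 0.0627 and 0.115).

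The transcripts of C4a and C4b are 95.8% identical over 99.9% of the C4a transcript, so reads can be misplaced between them. The stretch of 80 bases with the most differences inside the longest reading frame of the C4b transcript, from GENCODE M21, shows where reads can be told apart, with the 13 differing bases in capitals.
C4b (transcript bases 2741 to 2820): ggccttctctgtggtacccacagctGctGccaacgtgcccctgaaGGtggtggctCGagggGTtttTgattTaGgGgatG
C4a (transcript bases 2735 to 2814): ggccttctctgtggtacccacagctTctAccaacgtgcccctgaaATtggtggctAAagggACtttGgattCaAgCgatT

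Of 5279 windows of 100 bases along the alignment, 16.5% had no difference. C4a made up 0.755% to 1.79% of the summed level of both copies in flox and 2.88% to 10.2% in HKO. With the copies summed, HKO differed by -0.47 ± 0.13 on the log2 scale and missed the threshold (edgeR adjusted p = 0.0716).

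C3 and C2 complete the convertases, and neither passed. C3, the central protein on which all pathways converge, was the highest of the 35 genes per length in flox, at 1322 CPM per kilobase, with Vtn next at 1029. In HKO the order was Vtn at 1220.5 and C3 at 1071 CPM per kilobase, though neither gene passed the test. It was at 8150.3, 7120.1, 4153, 5841 and 8722 CPM in flox and at 6221, 4976, 4601, 6829 and 4906 CPM in HKO. Flox libraries held both the highest and the lowest value, and the log2 fold change was -0.30 ± 0.21 (edgeR adjusted p = 0.521). C3 took 29.2% to 44.6% of the complement counts in flox and 27.5% to 35.5% in HKO. C2, the protease partner of C4, went from 42.1 ± 6.95 to 36.7 ± 4.69 CPM (-0.20 ± 0.14). C3 is also an acute-phase gene. A list of 22 others held such genes and the signalling genes Socs3, Stat3, Il6ra, Il6st and Il1r1. Of these 22, 2 fell (Orm3 and Lcn2, log2 fold changes -2.64 ± 0.48 and -2.51 ± 0.48) and 0 rose. Among all tested genes 3.07% fell.

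The alternative pathway amplifies C3 cleavage through factor B, factor D and properdin. Cfp, which encodes properdin, the stabiliser of the convertase made by myeloid cells, was at 20.8, 25.0, 20.8, 47.4 and 27.5 CPM in flox and at 10.4, 10.5, 20.3, 8.02 and 9.74 CPM in HKO. The groups came close only at HKO replicate 3, and flox replicate 4 stood above the rest. Cfp fell 2.40-fold (log2 fold change -1.26 ± 0.28, edgeR adjusted p = 0.0221), which missed the threshold when HKO 1, 2, 4 or 5 was left out (edgeR adjusted p between 0.0534 and 0.0588). Without both flox replicates 4 and 5 the log2 fold change was -0.91 (0.119).

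Cfd, which encodes factor D or adipsin, a protease abundant in fat cells, was uneven among controls. It was at 3.97, 23.8, 14.1, 14.5 and 1.61 CPM in flox and at 2.85, 0.755, 5.01, 6.86 and 4.95 CPM in HKO. Flox replicates 2, 3 and 4 were above every HKO library while flox replicates 1 and 5 were among them, and the log2 fold change of -1.50 ± 0.62 did not pass (edgeR adjusted p = 0.226). Adipocyte markers gave 2 tested genes of 6, of which 0 passed, and summed to 52.6 to 114 CPM in flox and 50.7 to 83.6 CPM in HKO, most of it from Plin4 and Lipe. The defining Adipoq was at 1.26 CPM in flox replicate 4, 0.513 CPM in HKO replicate 4 and 0.0611 CPM in flox replicate 1, with no count in the other 7 libraries. Retn was at 0.426, 0.109 and 0.343 CPM in flox replicates 2, 3 and 4, and had no count elsewhere. Their part in the level of Cfd was not tested.

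Cfb, which encodes the protease factor B, was counted at only 2.04 ± 0.962 CPM in flox and 1.20 ± 0.372 in HKO (log2 fold change -0.76 ± 0.37, edgeR adjusted p = 0.324), from 183 and 98 counts. A read-through gene, Gm20547, spans Cfb and part of C2 on the same strand, shares 81.7% of the Cfb transcript at full identity, and is listed with 0 counts in all libraries. The labels do not say how reads matching both genes were treated, so the levels of Cfb and C2 are uncertain.

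The terminal pathway assembles the membrane attack pore from C5 (Hc), C6, C7, C8 and C9. C7, 1 of the further complement genes and named after its values were seen, was at 0.977, 0.730, 1.09, 0.629 and 2.06 CPM in flox and at 1.68, 2.08, 1.58, 0.770 and 0.715 CPM in HKO, and the overlapping groups differed by 0.30 ± 0.41 on the log2 scale (edgeR adjusted p = 0.779). The other 6 terminal genes all had positive log2 fold changes, 1 of which passed, though Hc turned to -0.04 when library totals alone set the scale. C8b, the beta chain of C8 (ENSMUSG00000029656, chromosome 4, 104623514 to 104661745, plus strand), was at 106, 83.8, 99.8, 207 and 92.8 CPM in flox and at 309, 227, 240.0, 335 and 254 CPM in HKO. The groups did not overlap, and flox replicate 4 lay close under the lowest HKO library. C8b rose 2.31-fold (log2 fold change 1.21 ± 0.23, edgeR adjusted p = 0.0142, exact permutation p = 0.00794), and the call held under all 16 alternatives.

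C6, the first protein to join C5b in the pore, showed the widest difference of the terminal genes. It was at 64.0, 31.6, 27.3, 185 and 51.1 CPM in flox and at 196, 190.4, 194, 341 and 209 CPM in HKO. All HKO libraries were above all flox libraries, with flox replicate 4 just under them and the other 4 controls far lower. The log2 fold change of 1.66 ± 0.44 did not pass (edgeR adjusted p = 0.0522, exact permutation p = 0.00794). Without flox replicate 4 it was 2.38 ± 0.28 and passed (edgeR adjusted p = 0.000556), as it did with no filter on low counts (0.00276), while DESeq2 gave C6 no p-value.

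C8a, the alpha chain of C8, which inserts in the membrane, was at 527, 319, 354, 703 and 408 CPM in flox and at 811, 697, 787, 1005 and 715 CPM in HKO. Flox replicate 4 again overlapped the HKO libraries and no other control did. The log2 fold change of 0.80 ± 0.21 did not pass (edgeR adjusted p = 0.0532), and it passed without flox replicate 4 (1.004, edgeR adjusted p = 0.0113), in DESeq2 (0.00604) and with no filter (0.0237). C8a and C8b lie tail to tail on chromosome 4 within 110.1 kb, while C8g, the gamma chain, is on chromosome 2. C8g was at 322, 304, 365, 335 and 168 CPM in flox and at 393, 378, 399.6, 343 and 389 CPM in HKO (0.35 ± 0.18, edgeR adjusted p = 0.367), and overlaps the opposite-strand gene Fbxw5, with 10.3% as many counts.

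C9, which polymerises into the wall of the pore, was at 475, 295, 140.0, 347 and 171 CPM in flox and 381, 382, 319.7, 430.0 and 331 CPM in HKO. Its controls spread over the whole HKO range (log2 fold change 0.37 ± 0.27, edgeR adjusted p = 0.553). Hc, which encodes C5, went from 905 ± 164 to 944 ± 78.4 CPM (0.06 ± 0.15). Among all tested genes, 1.91% had every HKO library above every flox library, as C4a, C6 and C8b did, and 3.46% had every HKO library below, as C1qb, C1qc, Cfp, Itgb2 and C4b did.

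**Figure D4:**
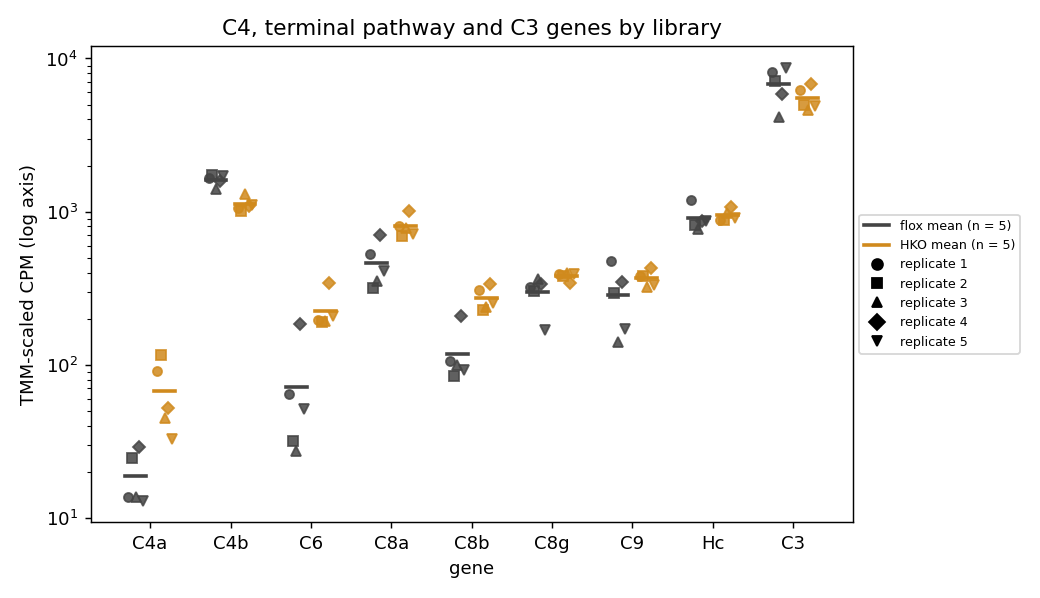
Each symbol is the CPM of 1 library on a log axis, grey for flox and orange for HKO, its shape gives the replicate number and the lines are group means (n = 5 each). Flox replicate 4 (diamond) is the highest control for C6 at 185 CPM, for C8a at 703 CPM and for C8b at 207 CPM. HKO replicate 4 is likewise the highest HKO library for C6 at 341 CPM, for C8a at 1005 CPM and for C8b at 335 CPM. C4b is the gene with HKO below flox throughout.

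Liver genes with a sex bias also differed between the groups in which C4a and C8b rose. Of 9 genes known as male-biased, 6 rose, 0 fell and 3 did not pass, with log2 fold changes of 2.21 ± 0.22 for Cyp7b1, an oxysterol hydroxylase, and 1.80 ± 0.34 for Mup20, a urinary pheromone protein. Their summed level was 1532, 912, 1358, 3070 and 1058 CPM in flox and 4855, 6229, 4763, 5689 and 4001 CPM in HKO, so flox replicate 4 was again the control nearest to HKO. Of 8 female-biased genes 2 could be tested and both fell, Cyp2b9 (-7.45 ± 0.80) and Cyp2a4 (-7.05 ± 1.26). The female-biased genes summed to 51.5 CPM in flox replicate 4, to 324 to 718 CPM in the other flox libraries and to 0.315 to 4.35 CPM in HKO. Both lists were chosen with earlier results of these data known, and 0.917% of all tested genes rose and 3.07% fell. The part of sex-biased genes in the levels of C4a, C6 and C8b was not tested.

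The soluble regulators, which hold complement in check in plasma, gave no call. Cfi, the protease that inactivates C3b and C4b, went from 633 ± 94.6 to 593 ± 63.9 CPM, and C4bp, its cofactor, from 758 ± 195 to 644 ± 112 CPM. Serping1, the C1 inhibitor, was at 932 ± 109 and 942 ± 50.3 CPM, with a log2 fold change of 0.01 ± 0.14. Vtn (vitronectin) and Clu (clusterin) keep the pore from inserting. Vtn went from 2089 ± 393 to 2478 ± 290.2 CPM (0.25 ± 0.17) and Clu from 1528 ± 294 to 1629 ± 105 CPM (0.09 ± 0.16). The groups overlapped in all 5.

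The membrane regulators shield host cells, and neither passed. Cd55, which speeds the decay of convertases, was at 7.94, 4.32, 7.03, 16.0 and 7.24 CPM in flox and at 4.21, 6.61, 8.64, 5.13 and 6.16 CPM in HKO (log2 fold change -0.47 ± 0.31). Its highest level was again in flox replicate 4. Cd59a, which blocks the pore, went from 64.9 ± 11.3 to 58.1 ± 5.79 CPM (-0.16 ± 0.14).

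The receptors bind complement fragments on phagocytes and were scarce in liver RNA. Itgb2, the beta chain shared by complement receptors 3 and 4, was at 6.11, 6.93, 7.03, 11.6 and 18.6 CPM in flox and at 3.30, 3.33, 3.56, 2.63 and 3.69 CPM in HKO. The groups did not overlap, and flox replicates 4 and 5 were highest, as for C1q. Itgb2 fell 3.04-fold (log2 fold change -1.60 ± 0.30, edgeR adjusted p = 0.0125), and the call held under all 16 alternatives, at -1.01 without both flox replicates 4 and 5.

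C3ar1, the receptor for C3a, was at 2.81, 1.16, 1.69, 3.72 and 5.73 CPM in flox and at 1.55, 1.01, 1.19, 1.09 and 1.32 CPM in HKO, with flox replicate 2 inside the HKO range. With a log2 fold change of -1.29 ± 0.39 it missed the threshold (edgeR adjusted p = 0.0866). It passed without flox replicate 2 (0.0394) and in DESeq2 (0.0267). Its highest libraries were flox replicates 4 and 5, and the log2 fold change was -0.92 without replicate 5 (0.237) and -0.60 without both (0.546). Itgam, the alpha chain of complement receptor 3, had 96 counts in flox and 25 in HKO and was under the filter on low counts. With no filter its log2 fold change was -1.73 ± 0.50 (edgeR adjusted p = 0.0570; DESeq2 adjusted p = 0.0235). C5ar1, the receptor for C5a, had 96 and 30 counts, and with no filter -1.48 ± 0.54 (edgeR adjusted p = 0.186). Neutrophils carry these receptors too. Of 8 neutrophil markers 3 could be tested and 0 passed (S100a8 -1.70 ± 0.55, S100a9 -1.18 ± 0.52), with sums of 6.02 to 20.9 CPM in flox and 3.63 to 12.8 CPM in HKO. The markers under the filter had few counts. In flox and HKO these were 43 and 2 for Mpo, 57 and 13 for Elane and 46 and 20 for Retnlg. Cxcr2 had 36 and 32 counts and Ly6g 5 and 0. The part of neutrophils in the receptor levels was not tested.

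Of 26 further complement genes, 20 were tested, 1 fell and 0 rose, with a median log2 fold change of 0.00. Among all tested genes 3.07% fell and 0.917% rose. Without flox replicates 4 and 5, 0 fell and 1 rose. The 1 that fell was Vsig4, the receptor for C3b on Kupffer cells and also 1 of the 20 macrophage markers, at 27.4, 16.2, 12.3, 26.9 and 28.5 CPM in flox and 6.15, 7.99, 11.02, 9.94 and 5.997 CPM in HKO (log2 fold change -1.44 ± 0.26, edgeR adjusted p = 0.0105). It had the same order of groups as C1qb and C1qc, with no overlap. Cfhr2 went from 439 ± 148 to 607 ± 70.6 CPM (0.47 ± 0.22), and Cpn2, a subunit of the carboxypeptidase that trims C3a and C5a, from 306 ± 36.8 to 314 ± 49.4 CPM. Susd4, a membrane inhibitor of complement, chosen after its values were seen, was at 9.53, 6.87, 9.27, 33.8 and 4.53 CPM in flox and at 36.2, 55.9, 24.5, 38.2 and 24.0 CPM in HKO. Flox replicate 4 was the only control inside the HKO range, as for C8a, and the log2 fold change of 1.48 ± 0.45 did not pass (edgeR adjusted p = 0.0887).

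Markers of other liver cells were read beside the 3.99% of all tested genes that changed. Of 8 sinusoidal endothelial markers, all 8 with negative log2 fold changes (median -0.44), 1 fell (Cdh5, -0.87 ± 0.20; Oit3 had -0.49 ± 0.20) and 0 passed without flox replicates 4 and 5. They had sums of 110 to 168 CPM in flox and 82.7 to 163 CPM in HKO. Of 8 stellate cell markers 0 passed (Pdgfrb -0.67 ± 0.28, Des 0.45 ± 0.27), with sums of 187 to 273 CPM and 165 to 328 CPM.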

How the data were processed

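RNA was measured in 10 mouse liver libraries. Per the labels' protocols, total RNA went into VAHTS Universal V6 libraries. The authors deposited raw counts of reads per gene. The submitters' processing notes name mm10 and DESeq2. The aligner, counter, annotation and strand setting were not given in the sources used here. Of 52073 gene identifiers also in GENCODE M21 (GRCm38, the assembly behind mm10), 2.83% had the same start and end there, so coordinates are the table's own and their build is uncertain. Promoters are RefSeq windows on GRCm38.p6.

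HKO and flox counts were compared by edgeR 4.0.16 (R 4.3.3) with its quasi-likelihood F-test, two-sided, with TMM scaling and Benjamini-Hochberg adjustment, after filterByExpr by group left 14068 genes. The SE was taken as the size of the fold change (log2) divided by the root of F. Log2 CPM used a prior count of 2. A count of 3 is worth 0.156 to 0.195 CPM, which covers counting error only. Exact permutation tests used log2 CPM. The test was tested on simulated data. Copies were sought with BLAST 2.17.0 against GENCODE M21 transcripts. Libraries of 1 group all differed by more than sampling noise (smallest chi-square per degree of freedom 24.6). Alternatives were DESeq2 1.42.0, library totals alone, no filter, the replicate number as a block, near-identical copies summed and each library left out, with 1 added after seeing the data (flox replicates 4 and 5 left out).

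All 35 genes were to be named, with the further complement genes that passed and the 3 of highest level among the rest (1 of which is not reported here), and the 2 of smallest p in each marker list. The genes and lists were chosen with earlier results of these data known. Vsig4, Colec10, Fga and Fgb each stand in 2 of the lists.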

Additional observations from a re-analysis of the deposited data

Results flagged for a closer look

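In 8 of 70 groups of 5 libraries, 1 library stood farther from the rest than Dixon's 95% limit allows. Chance gives about 1 in 20 for independent groups of normally distributed values. These groups are CPM of 35 genes in the same libraries, so that rate need not hold for them. Flox replicate 4 was high for C6 (185 CPM, the next library 64.0), C8b (207 CPM, the next 106) and Cfp (47.4 CPM, the next 27.5). HKO replicate 3 was high for C4b (1299.5 CPM, the next 1097) and Cfp (20.3 CPM, the next 10.5). HKO replicate 4 was high for C6 (341 CPM, the next 209). HKO replicate 2 was high for C2 (45.05 CPM, the next 35.4), and flox replicate 1 for Hc (1188 CPM, the next 872).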

How the results depend on the processing

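The calls of C1qb, C1qc, Itgb2 and C8b held under all 16 alternatives, and that of C4a under 15. The 6 fallen genes became 8 in DESeq2, 5 with no filter, 4 with the replicate block, 5 with near-identical copies summed and 3 without flox replicates 4 and 5, an alternative chosen after seeing the data, and 3 to 6 with 1 library left out. The 2 risen genes, all hepatocyte-made, became 4 in DESeq2, with no filter, with the replicate block and without flox replicates 4 and 5, 1 with near-identical copies summed, and 2 to 4 with 1 library left out. Over all genes, 432 fell and 129 rose in the main fit, 797 and 315 in DESeq2, and 626 and 214 with no filter. With copies summed 430 fell and 128 rose, and without flox replicates 4 and 5 176 fell and 93 rose. With 1 library left out 220 to 522 fell and 69 to 160 rose. The 5 fallen macrophage-made genes became 7 in DESeq2, 4 with the block and 3 without flox replicates 4 and 5, and 3 to 5 with 1 library left out. The 1 fallen hepatocyte-made gene became 0 with no filter, with the block, with copies summed and without flox replicates 4 and 5, and 0 to 1 with 1 library left out. C4a turned to -0.47 with copies summed, since it then took C4b's counts. For the other changes the cause was not tested.

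Same-numbered libraries correlated at -0.09, -0.07, 0.24, 0.04 and -0.12 in log2 CPM less the group mean. No flox library correlated best with the HKO library of its own number. These values cannot settle whether the numbers pair the libraries. With the replicate block 313 of all tested genes fell and 135 rose. The block ended the calls of C1qa (edgeR adjusted p = 0.0996) and C4b (0.150) and brought in C6 (0.00506) and C8a (0.0294).

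The other changes of sign were in log2 fold changes near 0. In DESeq2, C1s1 was at 8.76e-05 and Masp1 at 0.0090. Library totals alone moved the median of all tested genes from 0.01 to -0.10, with C1ra at -0.017, Masp2 at -0.074, Hc at -0.042, Serping1 at -0.090 and Clu at -0.021. With no filter Masp1 was at 0.0073, and with the block Mbl2 was at 0.0029 and Masp1 at 0.0043. Without flox replicates 4 and 5, C1s1 was at 0.0089, Mbl2 at 0.024 and Masp1 at 0.090. With 1 library left out the ranges were -0.046 to 0.024 for C1s1, -0.10 to 0.095 for Mbl2, -0.071 to 0.089 for Masp1, -0.044 to 0.086 for Masp2, -0.041 to 0.068 for Serping1 and -0.012 to 0.16 for Clu. On simulated counts the test recovered 64% of 2-fold and 88% of 4-fold changes, and 8 of its 160 calls were false. Smaller differences can therefore be missed with 5 libraries in each group. The simulated libraries varied independently, with no shared shift such as that of flox replicates 4 and 5.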
